A study of Mus musculus with 8 samples.

Results

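The glutathione transferases and the enzymes of the glutathione and thioredoxin systems were followed in mouse hematopoietic stem cells exposed to eltrombopag. The 46 genes, of 19505 measured, were chosen by symbol: every Gsta, Gstm, Gstp, Gstt, Gsto, Gstk, Gstz, Mgst, Gpx, Prdx and Txnrd gene in the platform annotation, with Gclc, Gclm, Gss, Gsr, Nqo1, Txn1 and Srxn1. Each was read by 1 probe set. The cells were sorted from bone marrow of mice aged 6 to 10 weeks as lineage-negative cells with c-Kit, Sca-1 and CD150 but without CD48. For 16 h in liquid culture, with stem cell factor at 100 ng/ml, they received eltrombopag at 10 µg/ml (4 arrays) or sterile water as the vehicle (4 arrays). Both groups thus shared the culture and the cytokine. The labels used here give no strain, sex or pooling of animals. Arrays are numbered 1 to 4 in each group and called biological replicates, so a p-value here reflects the spread among these arrays, which may be technical in part. As these are bulk samples, fewer cells of a type and less RNA per cell cannot be told apart.

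Glutathione is the cell's main small thiol. Transferases attach it to reactive compounds, glutathione peroxidases spend it to reduce peroxides, and peroxiredoxins reduce peroxides with electrons that thioredoxin carries from NADPH. Many of these genes are textbook targets of NRF2, a transcription factor released from KEAP1 by electrophiles and oxidants, which binds antioxidant response elements. Eltrombopag binds iron, the metal whose reaction with peroxides makes radicals. The question for these genes is whether any of them differed after exposure to the drug.

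RefSeq promoter windows (GRCm38.p6, 250 bases before to 50 after a start site) were matched for 42 of the 46 genes, 56 windows in all. The core of the antioxidant response element, searched as TGACNNNGC on both strands, was present in windows of 8 genes. The windows with it were 14.3% of the 56, against 12.4% of all 32851 windows. By gene it was present in 19.0% of the 42, against 14.0% of all 27025 genes with a window. The matches are shown since NRF2 binds elements of this kind. They are matches to a string of letters and not known NRF2 sites, and elements spelled otherwise were not searched. Each is printed so that it reads 5′ to 3′ in the direction of the element, with the match in capitals and 10 bases on either side.
Gstm7, chr3:107931725-107931753, minus strand: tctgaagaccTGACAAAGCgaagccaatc
Gstm5, chr3:107895802-107895830, plus strand: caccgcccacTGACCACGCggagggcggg
Gsta3, chr1:21240454-21240482, plus strand: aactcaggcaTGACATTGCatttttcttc
Mgst1, chr6:138140461-138140489, minus strand: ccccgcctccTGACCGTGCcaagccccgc
Prdx1, chr4:116685456-116685484, minus strand: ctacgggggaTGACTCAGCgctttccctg
Srxn1, chr2:152105542-152105570, minus strand: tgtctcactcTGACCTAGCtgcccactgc
Txnrd1, chr10:82859104-82859132, minus strand: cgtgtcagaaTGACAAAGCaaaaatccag
Gclm, chr3:122245413-122245441, minus strand: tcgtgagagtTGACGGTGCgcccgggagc
The Prdx1 match was 133 bases before the start site, the Gclm match 134, the Gsta3 match 121 and the Txnrd1 match 92. The Txnrd1 match lay inside the annotated gene, as Txnrd1 also has an earlier start site, whose window held 0 matches. In Gstm7, which has 2 windows, the match lay 129 bases before the more downstream start site. That match lay inside the annotated Gstm7 gene, after the other start site, whose window held 0 matches. Those of Mgst1 and Gstm5 were 56 and 42 bases before the start, and the Srxn1 match 29 bases after it. A match is a description of the letters and not a site shown to be bound.

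No gene of the set passed the test of the drug against its vehicle. limma called 0 of the 46 genes, as it called 0% of all 19505 genes, and the adjusted p was 0.99978 for every one of the 46. Below an unadjusted limma p of 0.05 stood 4 of the 46 (Gstm7, Gstm2, Gstt2 and Gstz1), all transferases and all higher with eltrombopag, beside 3.33% of all genes. Of the 46 genes 31 were higher and 15 lower, or 67.4% higher against 52.3% of all genes. The median log2 difference was 0.054, against 0.0071 over all genes; it was 0.027 without eltrombopag array 1, 0.029 without vehicle array 2 and 0.026 with array weights. In 11 of the 46 the eltrombopag value was above the vehicle value in all 4 pairs of arrays with the same number, and in 0 it was below in all 4. Over all genes these shares were 6.73% and 5.87%. The 11 were Gstm7, Gstm2, Gstm6, Gstt2, Gstz1, Gstt4, Gstp3, Gstk1, Mgst2, Prdx3 and Prdx2. Groups that did not overlap were found for 2 genes on the higher side, Gstm7 and Gstp3, where 1.12% of all genes had them, and for 0 on the lower side, where 1% had them.

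The intervals limit how large a change could have been. The 95% interval of the log2 difference lay within 1.5-fold on both sides of 0 for 39 of the 46 genes (84.8%). It lay within 2-fold for 45 (97.8%). Over all genes these shares were 88% and 98.7%. The 7 whose interval reached past 1.5-fold were Gstm7, Gstm2, Gstz1, Gsta3, Gsto2, Mgst1 and Nqo1. These intervals are not adjusted over genes, and they come from a fit with the group alone, without the replicate number. With the number in the fit, the SE went from 0.29 to 0.11 for Gsta3 and from 0.18 to 0.14 for Nqo1. Of these 7 genes only Gsto2 had a larger SE that way, 0.35 in place of 0.30. The list of genes past 1.5-fold thus holds spread between numbers as well. Differences near 0 had no settled sign: with another scaling or array weights it turned for Gpx1, Gpx2, Gpx3, Gss, Gsta3, Gstt3 and Txn1, and the count of higher genes was then 30 of 46. By signal, 19 of the 46 genes lay above 8.63, the mean upper quartile of the arrays, and 4 lay below 4.96, the mean lower quartile, where signal is dim. Signal also depends on the probes, so levels of different genes are not compared.

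**Figure D1:**
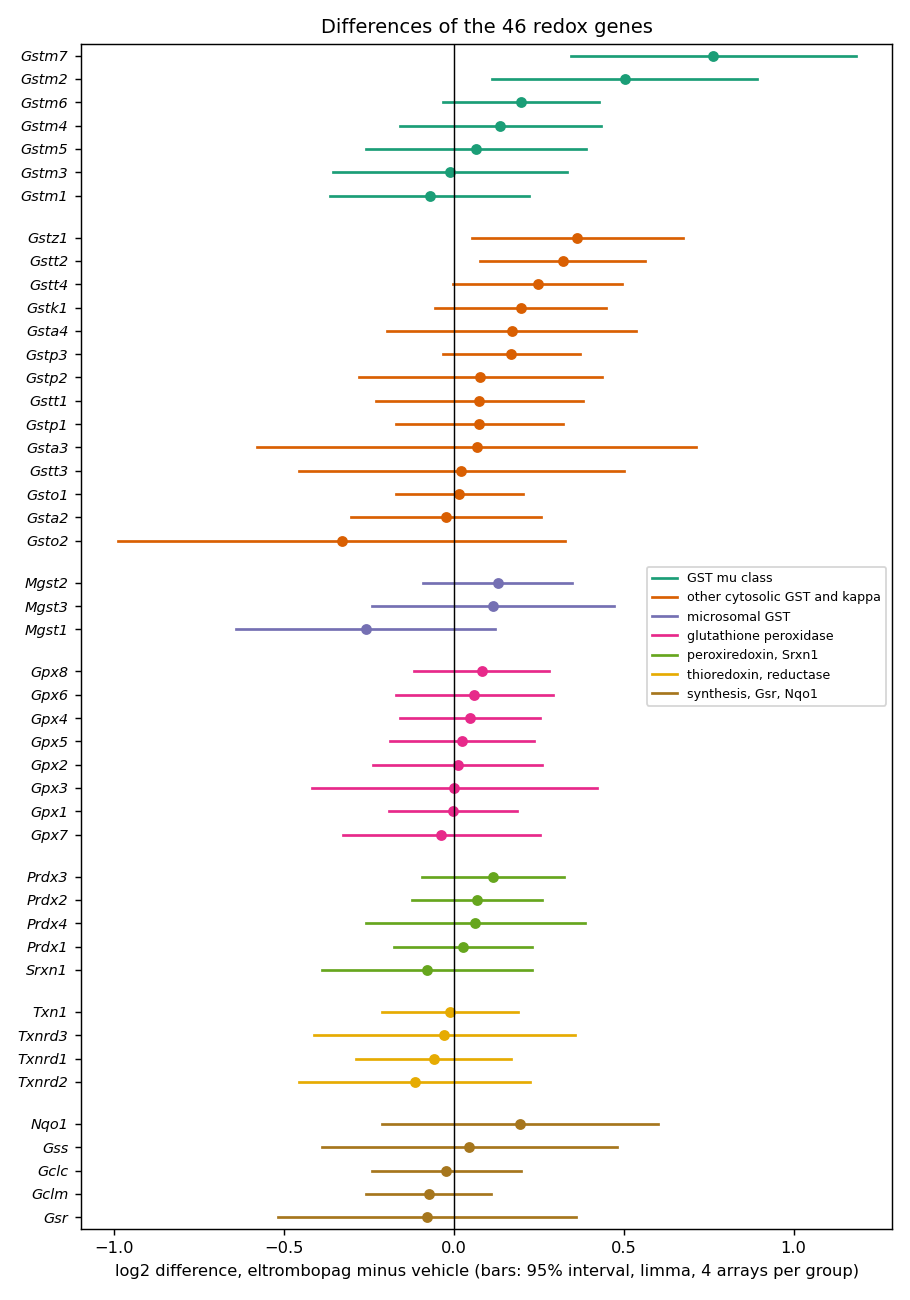
Log2 difference (eltrombopag minus vehicle, horizontal axis) of all 46 genes by role, with points for the difference and bars for the 95% interval from limma with 4 arrays per group. The interval lies wholly above 0 for Gstm7, Gstm2, Gstz1 and Gstt2, and those of the peroxidases, the peroxiredoxins and the thioredoxin genes all include 0.

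The 4 transferases with the smallest p-values came from 3 classes. Mu-class transferases conjugate glutathione to electrophiles, and the 7 genes of this class sit side by side on chromosome 3 in the RefSeq annotation, in the order Gstm5, Gstm7, Gstm6, Gstm3, Gstm2, Gstm1 and Gstm4, with 0 other protein-coding genes between them. Gstm7 had log2 values of 5.51, 5.76, 5.78 and 5.29 in vehicle arrays 1 to 4 and of 5.92, 6.71, 6.64 and 6.13 in eltrombopag arrays 1 to 4. All 4 eltrombopag arrays were above all 4 vehicle arrays, and within a pair of the same number the difference ran from 0.41 (number 1) to 0.95 (number 2). The vehicle mean was 5.59 ± 0.24 (SD, n = 4) and the eltrombopag mean 6.35 ± 0.39 (SD, n = 4), for a log2 difference of 0.76 (SE 0.19, interval 0.35 to 1.18), or 1.70-fold. In limma its unadjusted p was 0.00215, the smallest of the 46 and rank 23 among all genes, and its adjusted p 0.99978. With the replicate number as a block in limma, the unadjusted p was 2.56e-04 and the adjusted p 0.984, so it did not pass there either.

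Gstm2 had 6.32, 6.39, 6.55 and 6.31 with vehicle and 6.90, 6.44, 7.41 and 6.83 with eltrombopag. Eltrombopag array 2, at 6.44, fell inside the vehicle range, and the other 3 eltrombopag arrays were above it. The log2 difference was 0.50 (SE 0.18, interval 0.11 to 0.89), with an unadjusted limma p of 0.0162 and an adjusted p of 0.99978. Without eltrombopag array 3 it was 0.33, and without eltrombopag array 2 it was 0.66. The other 5 mu genes had differences from -0.071 (Gstm1) to 0.20 (Gstm6), so the genes next to Gstm7 and Gstm2 in the cluster had smaller differences than these. Within the cluster 5 of 7 genes were higher and 0 passed. The mu genes are close copies of one another, and how far their probe sets share signal was not tested.

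**Figure D2:**
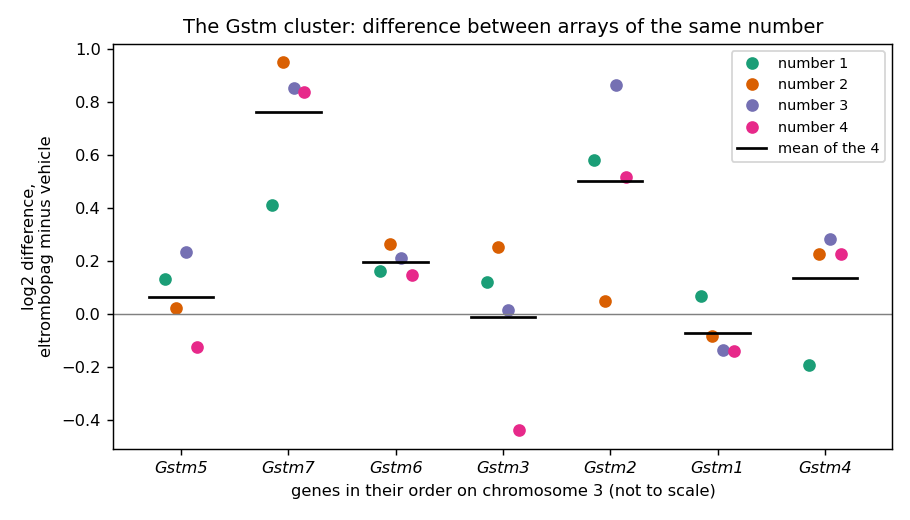
Log2 difference between the eltrombopag and the vehicle array of the same number (vertical axis) for the 7 Gstm genes in chromosomal order, with a point for each number and a line for the mean of the 4. For Gstm7, Gstm6 and Gstm2 all 4 points lie above 0, and Gstm2 of number 2 lies near it at 0.05.

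The 150 bases just upstream of the annotated Gstm7 and Gstm2 genes are shown, 5′ to 3′ on the strand of the genes (RefSeq, GRCm38.p6). They were picked as the mu genes with the largest differences, and Gstm6 and Gstm3 lie between them. Capitals mark CCAAT, the box bound by the factor NF-Y.
Gstm7, chr3:107931878-107932027, minus strand: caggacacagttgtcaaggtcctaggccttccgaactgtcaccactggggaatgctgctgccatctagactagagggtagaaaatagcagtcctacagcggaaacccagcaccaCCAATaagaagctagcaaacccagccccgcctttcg
Gstm2, chr3:107986421-107986570, minus strand: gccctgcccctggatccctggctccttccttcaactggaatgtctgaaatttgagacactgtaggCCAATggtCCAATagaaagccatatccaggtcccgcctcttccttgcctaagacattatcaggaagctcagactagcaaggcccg
The stretch held 1 CCAAT in Gstm7 and 2 in Gstm2. Promoter windows of Gstm1, Gstm4 and Gstm6 held it as well, and those of Gstm3 and Gstm5 did not. It was thus not particular to the mu genes with the largest differences. A match is a description of the letters and not a site shown to be bound. CCAAT was searched on both strands, and 37.4% of all promoter windows of 300 bases held it, as did 57.1% of the windows of the 46 genes. Some genes have several windows. By gene the shares were 41.1% of all genes with a window and 52.4% of the 42 of the set.

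Cytosolic transferases of the other classes, with the kappa enzyme, held 12 genes that were higher (10 with array weights) and 2 that were lower; the median of their log2 differences was 0.077, and 0 of 14 passed. Gstt2, of the theta class, had 8.25, 8.27, 8.45 and 8.13 with vehicle and 8.69, 8.39, 8.59 and 8.72 with eltrombopag. Vehicle array 3 was above eltrombopag array 2, and otherwise the groups were apart. The log2 difference was 0.32 (SE 0.11, interval 0.078 to 0.56), with an unadjusted limma p of 0.0145. Its neighbours on chromosome 10, Gstt4, Gstt1 and Gstt3, had differences of 0.25, 0.076 and 0.023, each with an interval that included 0. The interval of Gstt4, a dim gene, only just did so (-4.6e-04 to 0.50, unadjusted limma p 0.0504).

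Gstz1 encodes the maleylacetoacetate isomerase of tyrosine breakdown. Its values were 6.77, 7.18, 7.33 and 7.14 with vehicle and 7.27, 7.66, 7.34 and 7.60 with eltrombopag, a difference of 0.36 (SE 0.14, interval 0.053 to 0.68) and an unadjusted limma p of 0.0260. The groups overlapped, as eltrombopag array 1 was below vehicle array 3, and in number 3 the arrays differed by 0.01; the difference was 0.24 in numbers 3 and 4 alone. Gstp3, of the pi class, had 3.85, 3.79, 3.78 and 3.63 with vehicle against 3.86, 3.92, 3.93 and 4.02 with eltrombopag. The groups did not overlap, but the nearest arrays were at 3.85 and 3.86, and the interval of the difference (0.17, from -0.032 to 0.37) included 0. It was 0.071 in numbers 1 and 2 alone and 0.27 in numbers 3 and 4 alone. All 8 values were below the lower quartile of 4.96. Gsta2, Gstt4 and Gpx5 also had means below that quartile.

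Among the rest, Gstp1 and Gstp2, the pi-class enzymes next to Gstp3 on chromosome 19, had differences of 0.076 and 0.078. Gsto1, an omega-class enzyme that reduces dehydroascorbate, differed by 0.016 with an interval from -0.17 to 0.20, among the narrowest of the transferases. Gsto2, its neighbour, had the widest interval of the set, from -0.99 to 0.33. Gstk1, the kappa enzyme of mitochondria and peroxisomes, was at 0.20, and the alpha-class genes Gsta2, Gsta3 and Gsta4 were at -0.022, 0.068 and 0.17.

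The microsomal transferases are membrane proteins, and Mgst2 can make leukotriene C4. Mgst1 had 7.93, 7.84, 7.84 and 7.66 with vehicle and 7.73, 8.02, 7.17 and 7.33 with eltrombopag. Eltrombopag arrays 3 and 4 were below all vehicle arrays and eltrombopag array 2 was above them. The difference of -0.26 (SE 0.17, interval -0.64 to 0.12) did not pass. It was -0.13 without eltrombopag array 3, -0.41 without eltrombopag array 2 and -0.013 in numbers 1 and 2 alone. Mgst2 had 9.35, 9.36, 9.41 and 9.49 with vehicle and 9.52, 9.38, 9.51 and 9.71 with eltrombopag, a difference of 0.13 (interval -0.089 to 0.35) that was 0.069 without eltrombopag array 4. Mgst3 differed by 0.12 (interval -0.24 to 0.47).

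Glutathione peroxidases were close to even between the groups. Of the 8, 6 were higher and 2 lower (4 to 7 higher with other scalings or weights), and the median log2 difference was 0.018. The range was -0.036 to 0.083. All 8 intervals excluded a 1.5-fold change, as did those of 88% of all genes. The 8 include Gpx5, whose signal was dim, and how far it follows the transcript is not known. Gpx1, the cytosolic selenoenzyme that reduces hydrogen peroxide, differed by -0.0020 (interval -0.19 to 0.19). Gpx4, which reduces lipid peroxides and guards cells against ferroptosis, the iron-dependent form of cell death, averaged 11.14 ± 0.11 (SD, n = 4) in the vehicle arrays and 11.19 ± 0.054 (SD, n = 4) in the eltrombopag arrays, for a difference of 0.047 (interval -0.16 to 0.25). Gpx8, of the endoplasmic reticulum, had 5.44, 5.54, 5.47 and 5.34 with vehicle and 5.49, 5.46, 5.55 and 5.61 with eltrombopag. Gpx6, the olfactory form, had 5.24, 5.14, 5.40 and 5.23 with vehicle and 5.28, 5.46, 5.37 and 5.15 with eltrombopag. In both the groups overlapped, and their differences of 0.083 and 0.061 had the smallest p of the family (0.379 and 0.568, unadjusted, limma). Without 1 array they were as low as 0.047 (Gpx8, without vehicle array 4) and 0.012 (Gpx6, without eltrombopag array 2). The intestinal Gpx2, the plasma form Gpx3, the epididymal Gpx5 and Gpx7 of the endoplasmic reticulum had differences between -0.036 and 0.025.

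The peroxiredoxins and sulfiredoxin had a median within-group SD of 0.091, against 0.18 over all genes, with Srxn1 at 0.21 and Prdx4 at 0.23 above that value. Prdx3, of mitochondria, had 8.94, 9.08, 8.93 and 9.14 with vehicle and 9.05, 9.22, 9.13 and 9.17 with eltrombopag, a difference of 0.12 (interval -0.093 to 0.32). Cytosolic Prdx2 had 11.86, 11.82, 11.77 and 11.81 with vehicle and 11.90, 11.83, 11.81 and 11.98 with eltrombopag, a difference of 0.069 (interval -0.12 to 0.26) that was 0.036 without eltrombopag array 4. In both genes the eltrombopag array was the higher of each pair while the groups overlapped. Prdx1, also cytosolic, and Prdx4, of the endoplasmic reticulum, differed by 0.027 and 0.063. Srxn1, which restores overoxidised peroxiredoxins, differed by -0.078. All 5 intervals excluded a 1.5-fold change, as did those of 88% of all genes.

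The 4 thioredoxin genes had differences a little below 0 and 0 passed. The sign turned in 6 of 18 alternatives for Txn1, in 5 for Txnrd3 and in 1 for Txnrd1. Thioredoxin itself, Txn1, differed by -0.011 (interval -0.21 to 0.19). Txnrd2, the mitochondrial thioredoxin reductase, had 8.47, 9.14, 8.76 and 8.95 with vehicle and 8.64, 8.65, 8.58 and 8.99 with eltrombopag, a difference of -0.11 (interval -0.45 to 0.23). It was -0.010 without vehicle array 2 and -0.235 without vehicle array 1. Txnrd1, the cytosolic reductase, had 10.87, 11.16, 11.15 and 11.04 with vehicle and 11.09, 11.01, 11.03 and 10.85 with eltrombopag, a difference of -0.058 (interval -0.29 to 0.17). In number 1 both reductases were higher with eltrombopag, and the groups overlapped. Txnrd3, a form that also carries a glutaredoxin domain, differed by -0.027.

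Glutathione synthesis runs through glutamate-cysteine ligase, made of the catalytic subunit Gclc and the modifier Gclm, and then through glutathione synthetase, Gss. Gclm had 11.44, 11.40, 11.44 and 11.40 with vehicle and 11.32, 11.33, 11.32 and 11.42 with eltrombopag. Eltrombopag arrays 1 to 3 lay below all vehicle arrays and array 4 did not, and the difference was -0.072 (SE 0.083, interval -0.26 to 0.11). Gclc differed by -0.021 and Gss by 0.046. Gsr, which returns oxidised glutathione to its reduced form, differed by -0.078. Nqo1, a quinone reductase often read as a sentinel of NRF2 activity, had 8.37, 8.58, 8.01 and 7.83 with vehicle and 8.67, 8.29, 8.56 and 8.06 with eltrombopag. It was higher with eltrombopag in 3 of 4 pairs, the groups overlapped, and the difference of 0.19 (interval -0.21 to 0.60) did not pass. It ran from 0.073 without vehicle array 4 to 0.32 without vehicle array 2, and was 0.0046 in numbers 1 and 2 alone.

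**Figure D3:**
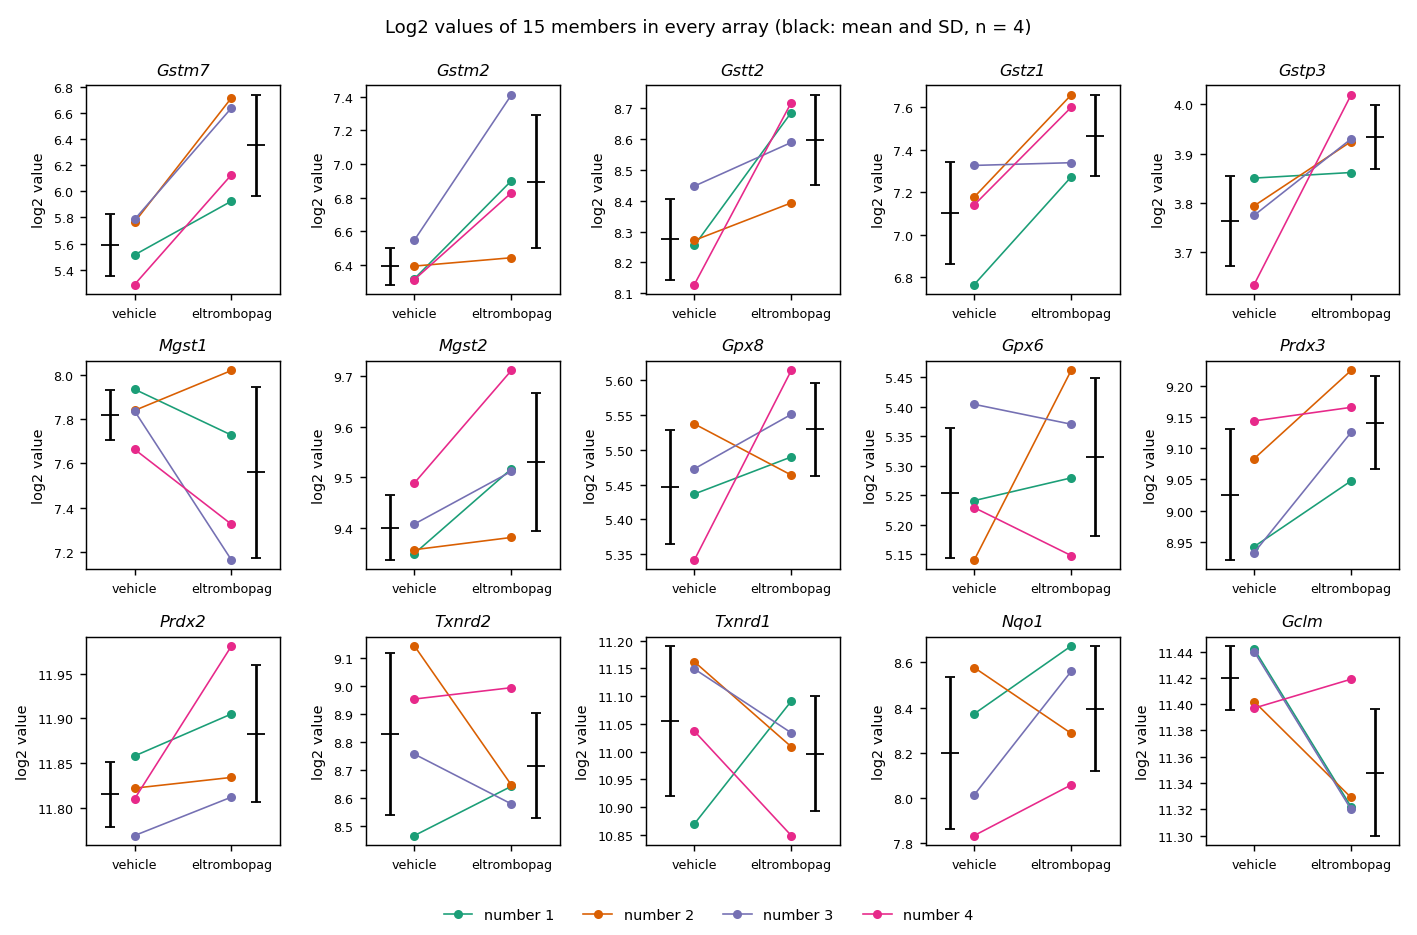
Log2 value (vertical axis, its range set for each gene) of 15 genes in every vehicle and eltrombopag array, with a line joining arrays of the same number and black bars for the mean and SD of 4 arrays. Gstm7 and Gstp3 are the genes whose groups do not overlap, and in Gclm only eltrombopag array 4 lies within the vehicle values.

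Other genes of these pathways were listed as well: 66 measured genes of NRF2 control, glutathione breakdown and transport, other antioxidant enzymes and NADPH supply. Of these, 35 were higher and 31 lower with eltrombopag, and the median log2 difference was 0.013. limma called 0, with 3 at an unadjusted p under 0.05, beside 3.33% of all genes. Groups that did not overlap were found for 1 gene on the higher side and 1 on the lower. Over all genes 1.12% and 1% had them. Cbr3, a carbonyl reductase, had 5.78, 6.00, 5.52 and 5.56 with vehicle and 5.43, 5.17, 5.51 and 5.42 with eltrombopag, a difference of -0.34 (interval -0.62 to -0.048). The groups did not overlap, with 5.52 and 5.51 as the nearest arrays. The difference was -0.595 in numbers 1 and 2 alone and -0.077 in numbers 3 and 4 alone. The glutaredoxin Glrx2, named here after its values were seen, was higher in all 4 eltrombopag arrays than in any vehicle array, with a difference of 0.10 (interval -0.080 to 0.29). Extracellular superoxide dismutase, Sod3, was dim on all arrays and differed by 0.35 (interval 0.031 to 0.68; 0.23 without vehicle array 2), and the aldehyde oxidase Aox1 differed by -0.30 (interval -0.59 to -0.0037). None of these 4 passed (adjusted p 0.99978 for each, limma).

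The replicate number was the other label by which the genes could be compared. The first principal component of all genes held 25.5% of the variance and was negative for the arrays numbered 1 and 2 (-18.8 to -11.0) and positive for those numbered 3 and 4 (14.0 to 15.6), whatever the group. A limma F-test across the 4 numbers, with the group as a term, called 0 of the 46 genes, and it called 0.21% of all genes. At an unadjusted p under 0.05 it held 7 of the 46, or 15.2%, beside 10.2% of all genes. This test takes the 2 arrays of a number as independent, and the labels do not say what a number shares. Both arrays numbered 3 were high in the Y-linked Uty (7.71 and 6.98, against 3.02 to 3.31 elsewhere). They were also high in the Y-linked Kdm5d (7.08 and 6.36, against 3.37 to 3.81 elsewhere). The numbers thus differed in Y-linked signal, and its part in the F-test was not tested.

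Gsta3, an alpha-class transferase, had the smallest p of the set. Its values were 8.94, 9.03, 9.84 and 9.60 with vehicle and 8.75, 9.09, 9.96 and 9.89 with eltrombopag. Numbers 1 and 2 were low and numbers 3 and 4 high in both groups, and the means of the numbers spanned 1.06 on the log2 scale, or 2.08-fold. Its unadjusted p was 4.22e-04 and its adjusted p 0.110 in limma's F-test. With an intensity trend and robust settings it passed (adjusted p 0.00685), as did Gstm1. Over the 16 alternatives its adjusted p ran from 0.00685 to 0.377.

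Gss had 7.09, 7.13, 7.74 and 7.39 with vehicle and 7.46, 6.98, 7.84 and 7.25 with eltrombopag, so that both arrays numbered 3 were the highest of their group (adjusted p 0.368 in limma's F-test). Gsta4, which acts on lipid aldehydes, had 8.26, 7.86, 7.84 and 7.58 with vehicle and 8.35, 8.16, 7.76 and 7.94 with eltrombopag. Gstp2 had 9.64, 9.42, 9.14 and 9.29 with vehicle and 9.76, 9.63, 9.33 and 9.09 with eltrombopag. Gstm5 had 9.73, 9.58, 9.18 and 9.51 with vehicle and 9.87, 9.60, 9.41 and 9.39 with eltrombopag. In these 3 genes number 1 was the highest in both groups, and none passed (adjusted p 0.433, 0.443 and 0.460 in limma's F-test). Gstm7 also varied by number, with means of 5.72, 6.24, 6.21 and 5.71 for numbers 1 to 4 (adjusted p 0.398 in limma's F-test).

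**Figure D4:**
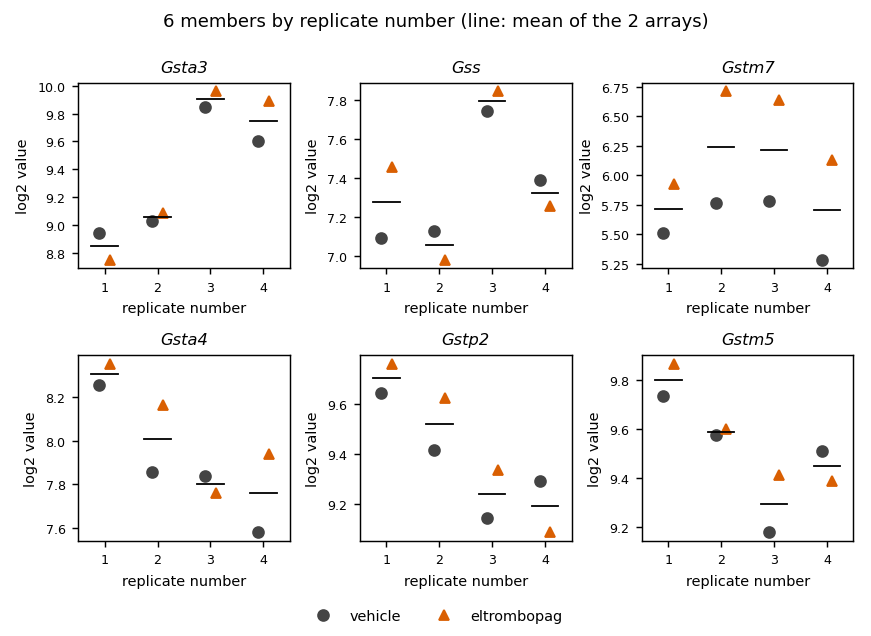
Log2 value (vertical axis, its range set for each gene) by replicate number for the 6 genes with the smallest p across numbers, with circles for vehicle, triangles for eltrombopag and a line for the mean of both arrays. Gsta3 is low in numbers 1 and 2 and high in numbers 3 and 4 in both groups.

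Among the 66 other pathway genes, the F-test called 1, Chac1, which breaks glutathione down. At an unadjusted p under 0.05 in that test stood 9 of the 66, or 13.6%, beside 10.2% of all genes. Chac1 and Slc7a11, the cystine importer that feeds glutathione synthesis, are described here after their values were seen. They were not alone: Sesn2, also of the list, had a smaller p than Slc7a11 (adjusted p 0.0567 in limma's F-test). Sesn2 was high in numbers 1 and 2 and low in numbers 3 and 4 in both groups. Chac1 had 7.81, 8.02, 5.89 and 6.11 with vehicle and 7.92, 7.99, 5.44 and 5.61 with eltrombopag. Its numbers 1 and 2 were high and its numbers 3 and 4 low in both groups, the reverse of Gsta3, and the means of the numbers spanned 2.34 on the log2 scale (adjusted p 0.00885 in limma's F-test). That call was lost in 5 of 16 alternatives, in which the adjusted p ran from 0.0513 without vehicle array 2 to 0.0773 without eltrombopag array 3. The others were the fits without vehicle array 3 (0.0581), without eltrombopag array 2 (0.0594) and without both arrays numbered 3 (0.0644). Slc7a11 had 8.94, 9.52, 7.95 and 7.33 with vehicle and 9.48, 9.04, 8.26 and 7.26 with eltrombopag and did not pass (adjusted p 0.0656 in limma's F-test). It passed in 2 of 16 alternatives, with trend and robust settings (0.00342) and with no term for the group (0.0244). Its drug difference was 0.078, with an interval from -1.10 to 1.25; the SE was 0.53 without the replicate block and 0.17 with it.

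Marker genes were read beside these values. The 10 measured stem cell genes had a mean log2 value of 9.11 to 9.49 over the vehicle arrays and 9.07 to 9.53 over the eltrombopag arrays, and 0 of them lay below the lower quartile. Cd48, which the sort excludes, was at 5.79 to 6.27 and 5.66 to 6.55. The mean of 6 erythroid genes was 6.74 and 6.78 in vehicle arrays 1 and 2, 7.05 and 6.90 in vehicle arrays 3 and 4, 6.87 and 6.7 in eltrombopag arrays 1 and 2, and 7.46 and 7.02 in eltrombopag arrays 3 and 4. For 6 megakaryocyte genes the mean ran from 8.0 to 8.54 with vehicle and 8.22 to 8.48 with eltrombopag, and for 11 neutrophil and monocyte genes from 6.19 to 6.83 and 6.27 to 6.87. Dim genes made up 4 of 6 for T and NK cells, 5 of 9 for mast cells, basophils and eosinophils, 4 of 8 for stromal and endothelial cells, and 0 of 5 for B cells, whose means ran from 5.71 to 5.80 and 5.72 to 5.94. The part of these cell types in the values of the 46 genes was not tested.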

How the data were processed

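Transcripts were measured on 8 Affymetrix arrays, 4 per group. Per the labels' protocols, about 10 ng of RNA was amplified and labelled with a 3′ kit. The authors deposited log2 values for each array. RMA, oligo and limma appear, with no versions, in the submitters' processing notes. RMA sets arrays to a common distribution, which removes differences in total RNA, and the sources used here give no genome build. Of 22206 probe sets, 19572 had 1 gene symbol, 0 several and 2634 none here. For 55 genes with several, the probe set with the highest mean was kept.

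limma 3.58.1 (R 4.3.3, two-sided, Benjamini-Hochberg over all 19505 genes, called at adjusted p under 0.05) compared the groups, and an F-test compared the 4 numbers. Scripts were tested on simulated data. Precision is limited by the number of arrays, and the 95% interval had a median half-width of 0.28 over all genes and 0.29 over the 46. The genes, lists and rules were chosen with earlier results of these data known. Named in full were the 2 genes of each role with the smallest p, those whose groups did not overlap, the 6 with the smallest p across numbers and 3 other pathway genes. All other genes of the set are given by their difference or a range. Of 74 pathway entries, 66 were measured.

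The titles do not state what a number shares. Deviations from the group mean, over all probe sets, correlated at 0.142 to 0.294 for arrays of the same number and at -0.208 to 0.171 otherwise. All 4 were over 0.1, and arrays of the same number were set side by side as pairs, on these data alone. That cut-off does not single out the pairs. Vehicle array 4 with eltrombopag array 3 was at 0.171, and vehicle array 3 with eltrombopag array 4 at 0.168. Both were above the 0.142 of number 4. The main fit held the group alone and did not use the pairs, and a fit with the number as a block was an alternative. Others were a filter, scalings, array weights, a trend, probe set means and left-out arrays.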

Additional observations from a re-analysis of the deposited data

Results flagged for a closer look

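In 50 groups of 4 values, an array standing far from the remaining 3 was found 2 times, where chance gives about 2.5 (1 group in 20). Gclm was at 11.42 in eltrombopag array 4, while eltrombopag arrays 1 to 3 ran from 11.32 to 11.33. Txnrd2 had 8.99 in the same array, against 8.58 to 8.65.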

How the results depend on the processing

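In all 18 alternatives limma called 0 genes and 0 of the 46 between the groups. The replicate block left 0 calls, with 904 genes in place of 650 at an unadjusted p under 0.05 and 4 of the 46 in both fits, and changed no call. The fit without both arrays numbered 3, which were high in the Y-linked Uty (7.71 and 6.98, against 3.02 to 3.31 elsewhere), was chosen after seeing the data. Of 32 genes of the set above the median signal, 20 were higher, as fewer genes were tested. Gstm7 and Gstm2 lay below that median, so this filter left them out. Leaving out 1 array gave 27 to 34 of 46 higher. Of the 15 genes given in full, 12 kept their sign in every alternative that held them. The exceptions were Gpx8 (-0.0102) and Txnrd1 (0.0345) in numbers 1 and 2 only, and Gpx6. In numbers 3 and 4 alone Gpx6 was at -0.0575 (the cause was not tested). Of all 46, 39 kept their sign under the 3 scalings and weights, and 19 in every alternative that held them. Among these 19, Gstm7, Gstm2, Gstm6, Gstt4 and Gstp3 were not in the fit of genes above the median signal. Across the numbers, 41 genes were called, 3 to 17 without 1 array, 2 without both arrays numbered 3, and 198 with trend and robust settings, which also called 2 of the 46. How far dim values follow their transcripts is not known here.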
